A study of Saccharomyces cerevisiae BY4741 with 4 samples.

Results

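The 10 genes described here encode phosphate transporters, phosphatases and the transcription factor of the phosphate (PHO) pathway of the budding yeast Saccharomyces cerevisiae. The rows were found by systematic name, and the rule uses no measured value: the transporters PHO84 (YML123C), PHO89 (YBR296C), PHO87 (YCR037C) and PHO90 (YJL198W), the secreted acid phosphatases PHO5 (YBR093C), PHO3 (YBR092C), PHO11 (YAR071W) and PHO12 (YHR215W), the vacuolar alkaline phosphatase PHO8 (YDR481C) and the regulator PHO4 (YFR034C). All 10 had a row among the 7382 features of the count table, all 10 passed the filter on low counts, and none had a further row for a segment shared with an overlapping gene.

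Wild-type BY4741, a haploid laboratory yeast of mating type a, was grown in YPD, a rich glucose medium, at 30 °C, and harvested when the culture had grown from an OD600 of 0.05 to 0.6. Each fraction had 2 biological replicates: total RNA without selection, and poly(A) RNA bound to oligo-dT beads with residual rRNA removed afterwards. Genotype, medium and density at harvest were the same for all 4 libraries. The labels do not state the phosphate content of the medium, and no phosphate-starved culture was included, so the values describe a single growth condition.

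Total counts were between 52851542 and 75955489 per library. Nuclear coding features took 1689196 and 2389222 of these in total RNA, as against 52733872 and 53059647 after poly(A) selection. The 10 genes together held 6942 and 10164 counts in total RNA and 186224 and 194425 in the poly(A) fraction, or 0.411% and 0.425% against 0.353% and 0.366% of the nuclear coding counts. All 5 markers of a cells had counts, with a summed level of 372 and 396 normalised CPM (counts scaled by library size and TMM factor) in total RNA and 336 and 361 in the poly(A) fraction. The 4 markers of alpha cells summed to 9.19 and 10.8 in total RNA and to 5.19 and 5.27 in the poly(A) fraction, and MF(ALPHA)2 was at 0 in total RNA replicate 1. HIS3, which is interrupted by a deletion in this strain, had 124 and 145 counts in total RNA and 4686 and 5481 in the poly(A) fraction, and the other deleted markers were not analysed here.

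Yeast cells take up inorganic phosphate through plasma membrane transporters of high and low affinity, and they free phosphate from organic compounds outside the cell with secreted acid phosphatases. When phosphate is scarce, the cyclin-dependent kinase complex Pho80-Pho85 is inhibited by Pho81, and Pho4 enters the nucleus and, together with Pho2, activates PHO84, PHO5, PHO11, PHO12 and other genes. When phosphate is plentiful, Pho4 is phosphorylated and exported. Pho4 is known to bind the DNA motif CACGTG and, more weakly, the variant CACGTT.

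The upstream sequences are shown because they hold the motif known to be bound by Pho4, and the levels below can be read against them. The genome of build R64 was searched for CACGTG, which reads the same on both strands, and for CACGTT on either strand, in the 600 bases before each start codon. CACGTG occurred before 7 of the 10 genes, as against 7.23% of 5999 windows of the same length before nuclear coding genes. CACGTT occurred before 6 of the 10, as against 18.8% of windows, and both motifs before 6, as against 1.62%. No CACGTG site shared bases with a CACGTT site. PHO84 had 2 CACGTG sites, starting at positions -436 and -414, and 2 CACGTT sites. Neither motif was found before PHO90, PHO3 or PHO4, which says only that these letters are not in these windows. The windows around CACGTG follow, 5′ to 3′ on the strand of the gene, with the motif in capitals.
PHO84, chrXIII:26192-26253, minus strand: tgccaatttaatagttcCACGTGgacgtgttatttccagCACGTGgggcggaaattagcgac
PHO89, chrII:798823-798862, minus strand: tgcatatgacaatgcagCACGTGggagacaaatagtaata
PHO87, chrIII:197295-197334, minus strand: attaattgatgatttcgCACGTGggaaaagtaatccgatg
PHO5, chrII:431182-431221, minus strand: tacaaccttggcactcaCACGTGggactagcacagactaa
PHO11, chrI:225160-225199, plus strand: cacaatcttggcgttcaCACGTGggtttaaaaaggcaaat
PHO12, chrVIII:551799-551838, plus strand: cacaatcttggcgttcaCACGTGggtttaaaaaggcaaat
PHO8, chrIV:1420762-1420801, minus strand: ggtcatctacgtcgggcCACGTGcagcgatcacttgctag

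**Figure D1:**
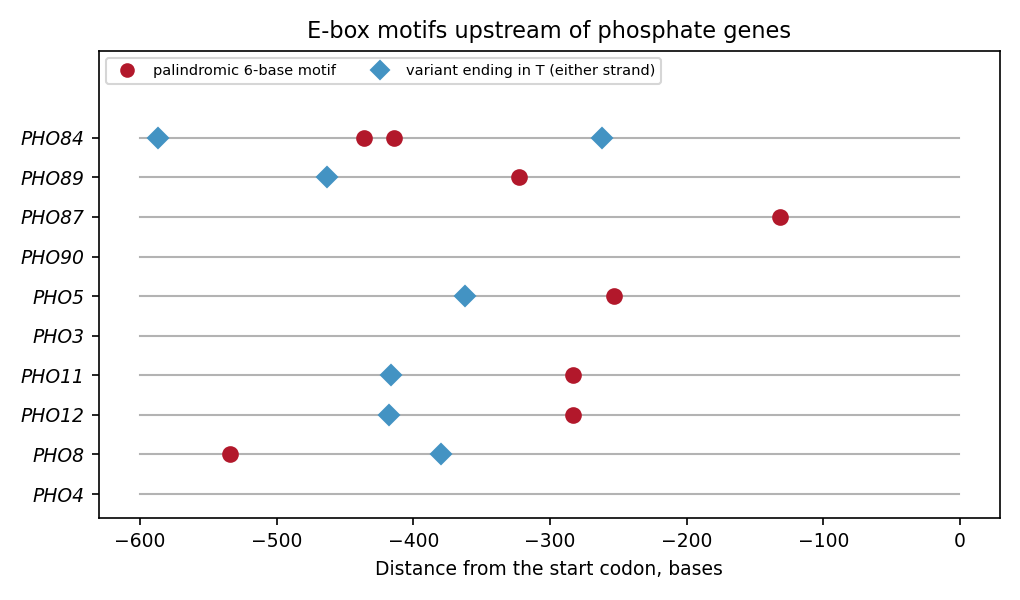
Positions of the palindromic CACGTG motif (circles) and the variant CACGTT on either strand (diamonds) in the 600 bases before the start codon of the 10 genes. The horizontal axis is the distance from the start codon in bases. PHO90, PHO3 and PHO4 have neither motif, and PHO87 has CACGTG alone.

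The acid phosphatase genes are paralogs, which bears on their counts, because reads were 50 bases long and the treatment of reads that match several places was not given in the sources used here. PHO11 on chromosome I (225460 to 226863) and PHO12 on chromosome VIII (552099 to 553502) are both 1404 bases long and differ at 4 positions, counted from 1 at the first base of the start codon: A273G, A1060C, C1245T and A1268G, with the base of PHO11 first. Of the 50-base stretches of PHO11, 87.2% occur unchanged in PHO12, so their counts are not independent if reads matching both genes were kept. Whether they were is unknown. The next lines show the same 50 bases of both genes, coding positions 1232 to 1281, which hold 2 of the 4 differences, with the differing bases in capitals.
PHO11, chrI:226691-226740, plus strand: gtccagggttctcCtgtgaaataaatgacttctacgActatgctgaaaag
PHO12, chrVIII:553330-553379, plus strand: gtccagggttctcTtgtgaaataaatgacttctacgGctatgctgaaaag
PHO3 (427698 to 429101) and PHO5 (429548 to 430951) lie in tandem on the minus strand of chromosome II, 446 bases apart. They are also 1404 bases long each and 86.5% identical, but only 8.71% of the stretches of PHO3 occur in PHO5, so most reads separate them. Of the stretches of PHO5, 12.3% occur elsewhere in the genome, and PHO11 holds 3.62% and PHO12 2.58% of them all. PHO3 shares no stretch with PHO11 or PHO12. Coding positions 639 to 688, the stretch with most differences, hold 17 of them, in capitals.
PHO3, chrII:428414-428463, minus strand: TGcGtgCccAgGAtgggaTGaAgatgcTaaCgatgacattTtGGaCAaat
PHO5, chrII:430264-430313, minus strand: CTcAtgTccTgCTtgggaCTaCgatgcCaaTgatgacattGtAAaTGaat

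The first comparison asked how strongly each gene was represented within a fraction. Levels of different genes are compared as normalised CPM per kilobase of coding length, as a description without a test. PHO84, the high-affinity proton-coupled transporter, stood highest in total RNA at 208 ± 13.7 (SD, n = 2), rank 144 of 5866 coding genes with a known length. PHO3, an acid phosphatase known to be repressed by thiamine rather than by phosphate, followed at 66.3 ± 0.818, then PHO12 at 63.0 ± 3.799, PHO11 at 53.5 ± 1.72, PHO5 at 50.7 ± 5.76 and PHO8 at 41.0 ± 2.06. The library ranges of PHO11 and PHO5 overlapped, so these neighbours in the order did not differ beyond their spread.

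PHO90, a low-affinity transporter, had 13.9 ± 0.563. PHO89, a sodium-coupled transporter known for activity at alkaline pH, had 5.16 ± 0.513, PHO4 5.01 ± 0.168 and PHO87, the other low-affinity transporter, 4.82 ± 0.689 normalised CPM per kilobase, with overlapping ranges in that order. The median coding gene had 7.22 in total RNA and 6.82 in the poly(A) fraction, and 7 of the 10 genes lay above the median in each fraction.

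The order was different in the poly(A) fraction. PHO12 at 76.6 ± 1.57 and PHO84 at 75.8 ± 0.982 normalised CPM per kilobase (SD, n = 2) came first, with overlapping ranges, at ranks 355 and 359. PHO11 at 64.8 ± 0.773, PHO3 at 56.9 ± 0.966, PHO8 at 40.6 ± 0.410, PHO5 at 32.3 ± 2.54 and PHO90 at 8.79 ± 0.263 followed without overlap between neighbours. PHO4 at 4.50 ± 0.174, PHO89 at 3.93 ± 1.04 and PHO87 at 3.42 ± 0.0927 overlapped in that order. These orders divide by the whole reading frame, and the place of PHO11 and PHO12 depends on how shared reads were counted, which is unknown. Unique length is the coding length less the number of 50-base stretches that also occur elsewhere. It keeps the last bases of the frame, where no such stretch starts, so it only approximates the case of dropped shared reads. Divided by unique lengths of 208 and 222 bases, PHO11 and PHO12 had 361 ± 11.6 and 398 ± 24.0 in total RNA. In the poly(A) fraction they had 438 ± 5.22 and 484 ± 9.96 (SD, n = 2). Both genes were then above PHO84 in each fraction.

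The levels of the 3 genes without either motif, 66.3, 13.9 and 5.01 for PHO3, PHO90 and PHO4 in total RNA, lay within the range of the 7 genes with CACGTG, 4.82 to 208.

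**Figure D2:**
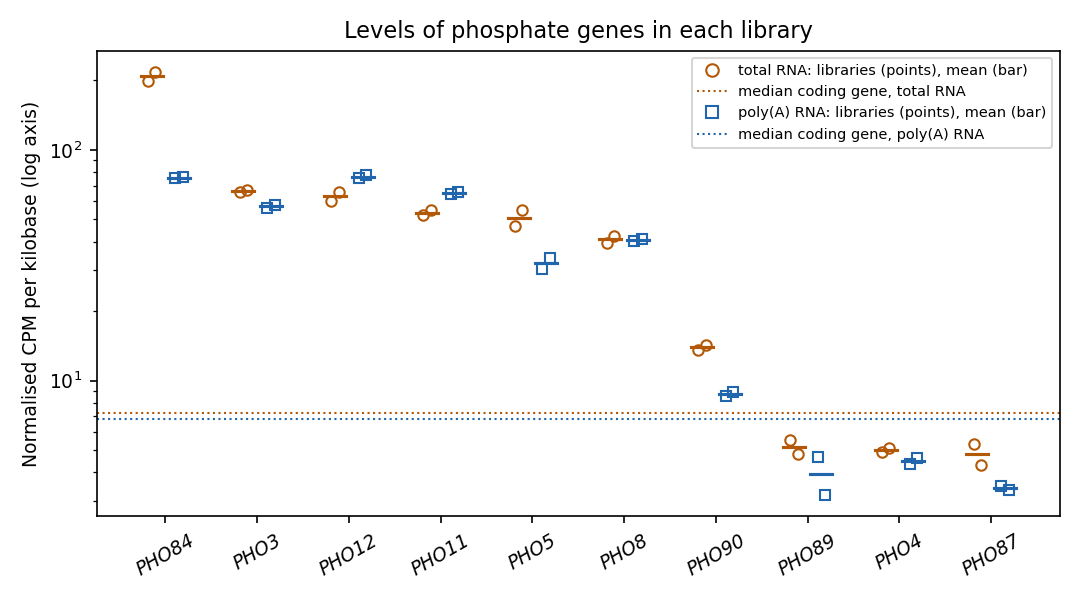
Level of each gene in each library, in normalised CPM per kilobase of coding length on a log axis. Circles are the total RNA libraries, squares the poly(A) libraries, short bars the means of 2 libraries and dotted lines the median coding gene of each fraction. PHO84 stands at 208 in total RNA and 75.8 in the poly(A) fraction, and PHO89, PHO4 and PHO87 lie below the medians.

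The second comparison set the relative level of each transcript after poly(A) selection against that in unselected RNA. A positive log2 fold change means higher in poly(A). It is relative to the typical feature after TMM scaling and does not describe RNA per cell. For a level within a fraction, few cells with a transcript and little of it per cell cannot be told apart in these bulk samples. With edgeR's quasi-likelihood test and Benjamini-Hochberg adjustment over 6945 features, 5 of the 10 genes were lower after selection, 2 were higher and 3 did not pass the threshold of 0.05. Among all features tested 31.2% were lower and 31% higher, 62.2% in either direction, so a called difference was common. The median log2 fold change of the 10 genes was -0.30, and that of all features tested 0.044. Directions depend on this scaling: with library totals the median of all features was 5.34 and all 10 genes were above 0, with PHO84 lowest at 3.85. Of all calls with that scaling, 98.9% were higher.

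**Figure D3:**
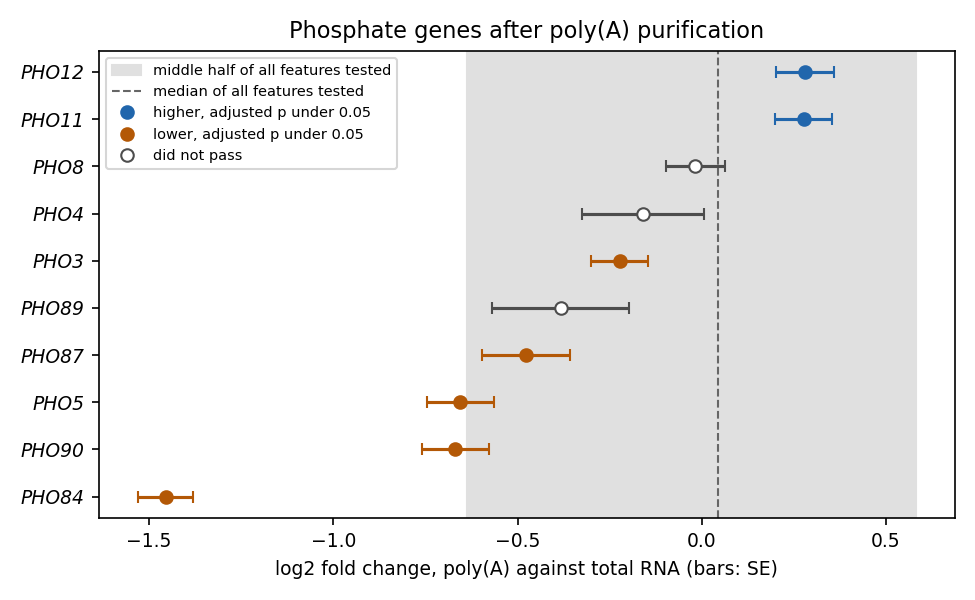
Log2 fold change of each gene, poly(A) against total RNA, with its SE. The grey band spans the interquartile range of all features tested and the dashed line their median, 0.044. PHO84 lies far below the band at -1.46, PHO90 and PHO5 lie just below its edge at -0.67 and -0.66, and PHO11 and PHO12 lie within it at 0.28.

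Among the transporters, PHO84 had the largest difference. It stood at 349 and 384 normalised CPM in total RNA (3043 and 4541 counts) and at 133 and 135 in the poly(A) fraction (43792 and 45487 counts), so the groups were far apart and the poly(A) libraries nearly equal. Its log2 fold change was -1.46 (SE 0.08, adjusted p = 2.66e-13), a relative level 2.74-fold lower in the poly(A) fraction. Of the 5772 coding genes with a known length that were tested, 7.76% had a lower value. An annotated antisense RNA, YNCM0001W (chromosome XIII, 23564 to 26578, plus strand), spans the whole PHO84 reading frame (24037 to 25800, minus strand). The use of strand in the counting was not given in the sources used here. The segment shared by YKR075C and YKR075W-A, genes on opposite strands, had 44 and 41 counts in total RNA. It had 2090 and 1449 in the poly(A) fraction, so reads in that segment were not assigned to 1 gene by strand. YNCM0001W had no feature of its own, so PHO84 counts may include antisense reads. Sense and antisense reads cannot be told apart here, and what part antisense RNA had in the PHO84 counts was not tested.

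PHO90, on chromosome X (60844 to 63489), had 35.8 and 37.9 normalised CPM in total RNA and 22.8 and 23.7 in the poly(A) fraction. It fell by 0.67 on the log2 scale (SE 0.09, adjusted p = 1.54e-06), with no overlap between the groups. Its paralog PHO87, on chromosome III (194414 to 197185), had 14.7 and 11.998 normalised CPM in total RNA, from 128 and 142 counts, and 9.67 and 9.30 in the poly(A) fraction. The total RNA libraries of PHO87 were the more variable ones, both above the poly(A) libraries, and the log2 fold change was -0.48 (SE 0.12, adjusted p = 0.00159). That call was lost with scaling to the sum of nuclear coding counts, at -0.16. The log2 ratio of PHO87 to PHO90 counts was -1.47 ± 0.265 in total RNA and -1.29 ± 0.0823 in the poly(A) fraction (SD, n = 2), a difference of 0.18 that was smaller than the spread in total RNA (exact two-sided permutation p = 0.667). Without total RNA replicate 2 it was -0.0078.

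PHO89, on chromosome II (796798 to 798522), did not pass the main test, which had no replicate block. With such a block PHO89 passed (log2 fold change -0.42, adjusted p = 0.00624). It had 9.53 and 8.28 normalised CPM in total RNA, from 83 and 98 counts, and 8.05 and 5.51 in the poly(A) fraction, from 2660 and 1856 counts, so the values of the fractions did not overlap but the poly(A) libraries were well apart. The log2 fold change was -0.38 (SE 0.19, adjusted p = 0.0802). Without poly(A) replicate 1 it was -0.64 (adjusted p = 0.00109) and without total RNA replicate 2 it was -0.49 (adjusted p = 0.037), while without poly(A) replicate 2 it was -0.12. The poly(A) replicates of PHO89 differed 1.46-fold, and only 5 of 4961 nuclear coding features with a mean of at least 1000 poly(A) counts differed more. The median of these features on the log2 scale was 0.0754, and the other 9 genes described here differed between 1.01-fold and 1.12-fold.

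Measured per kilobase, PHO84 made up 89.0% and 90.3% of the transporter level before selection and 81.8% and 83.1% after it. The share of PHO90 was 6.02% ± 0.0967 in total RNA and 9.55% ± 0.275 in the poly(A) fraction, and that of PHO89 2.24% ± 0.348 and 4.27% ± 1.14 (SD, n = 2). Counts assigned to PHO84, which may include antisense reads, were the largest transporter share in each of the 4 libraries. The PHO84 share in every poly(A) library was below that in every total RNA library.

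**Figure D4:**
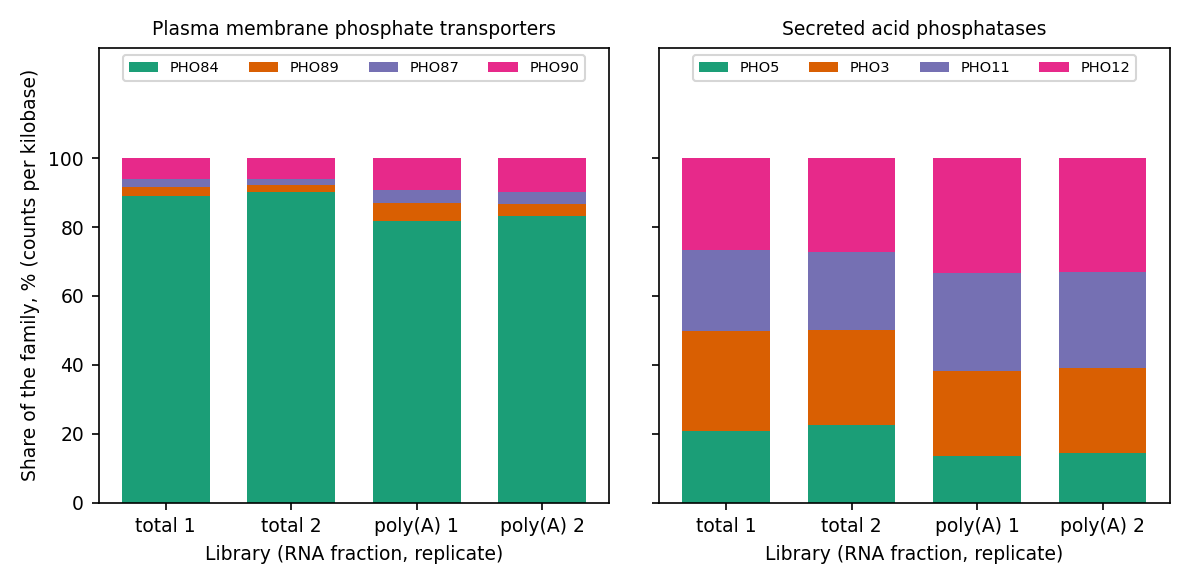
Share of each gene in the summed level of its family, in percent of counts per kilobase, for the transporters (left) and the secreted acid phosphatases (right) in each of the 4 libraries. PHO84 holds 89.0% and 90.3% of the transporter level in total RNA and 81.8% and 83.1% in the poly(A) fraction, and PHO5 is the smallest acid phosphatase share in the poly(A) fraction.

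The secreted acid phosphatases, equal in length, went in different directions. PHO5, the main phosphate-repressible enzyme, had 65.5 and 76.9 normalised CPM in total RNA and 42.8 and 47.8 in the poly(A) fraction. All poly(A) values lay below all total RNA values, and PHO5 fell by 0.66 on the log2 scale (SE 0.09, adjusted p = 1.98e-06). PHO3, its tandem neighbour, had 92.3 and 94.0 normalised CPM in total RNA and 78.9 and 80.8 in the poly(A) fraction, with little spread in either fraction. It fell by 0.22 (SE 0.08, adjusted p = 0.016). This small decrease was not robust to scaling or to single libraries. PHO3 had 0.098 with scaling to the nuclear coding sum (adjusted p = 0.236), and it did not pass without poly(A) replicate 1 (-0.17, adjusted p = 0.134) or without total RNA replicate 2 (-0.20, adjusted p = 0.0699), nor with at least 10 CPM required in 2 libraries (-0.085, adjusted p = 0.281).

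PHO11 and PHO12, also phosphate-repressible, were the only members higher with TMM scaling; with scaling to the nuclear coding sum PHO8 was higher too. PHO12 had 84.6 and 92.2 normalised CPM in total RNA and 106 and 109 in the poly(A) fraction, and rose by 0.28 on the log2 scale (SE 0.08, adjusted p = 0.00403). PHO11 had 73.4 and 76.8 against 90.3 and 91.8 and rose by 0.28 as well (SE 0.08, adjusted p = 0.00429). The groups did not overlap for either gene. Since the genes share most of their sequence, these are hardly separate results if reads matching both were kept. The pair summed as 1 feature had 0.28 (adjusted p = 0.00257). The count ratio of PHO11 to PHO12 lay between 0.833 and 0.867 in the 4 libraries.

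Ratios within a library do not depend on the scaling between fractions. There were 1.41 and 1.22 PHO3 counts per PHO5 count in total RNA and 1.84 and 1.69 in the poly(A) fraction. On the log2 scale the ratio was 0.39 ± 0.146 and 0.82 ± 0.089 (SD, n = 2), a difference of 0.43 with no overlap between fractions (exact two-sided permutation p = 0.33, the smallest that 2 against 2 libraries allow). Counts of PHO84 per PHO5 count were 5.34 and 4.99 in total RNA and 3.10 and 2.82 in the poly(A) fraction, so PHO84 was lower after selection relative to PHO5 as well, without overlap. That difference was -0.80 on the log2 scale (exact two-sided permutation p = 0.33). Over the 4 ratios computed, PHO11 to PHO12 and PHO87 to PHO90 included, the Benjamini-Hochberg adjusted value of these exact tests was 0.667 for both. PHO5 held 21.7% ± 1.34 of the acid phosphatase level in total RNA and 14.0% ± 0.745 in the poly(A) fraction, while PHO12 held 27.0% ± 0.230 and 33.2% ± 0.160 (SD, n = 2). Over unique length the shares of PHO5 were 6.46% ± 0.422 and 3.59% ± 0.215 and those of PHO12 44.8% ± 0.533 and 47.4% ± 0.0872, so the sizes of the shares depend on the length used, while the share of PHO5 was lower after selection with either length.

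PHO8 and PHO4 were not called different. PHO8, on chromosome IV (1418550 to 1420250), encodes the alkaline phosphatase of the vacuole and had 67.3 and 72.2 normalised CPM in total RNA and 68.6 and 69.6 in the poly(A) fraction, with the poly(A) values between those of total RNA. Its log2 fold change was -0.017 (SE 0.08, adjusted p = 0.871). Scaled to the nuclear coding sum it was 0.30 (adjusted p = 0.0016). PHO4, on chromosome VI (225020 to 225958), had 4.59 and 4.82 in total RNA, from 40 and 57 counts, and 4.11 and 4.34 in the poly(A) fraction. The poly(A) values of PHO4 were lower, but at -0.16 on the log2 scale (SE 0.17, adjusted p = 0.419) a difference was not detectable at this depth.

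Coding length moved with the fold change over all genes, and it is given beside the members for that reason. Across 5772 coding genes the log2 fold change fell with length (Spearman's rho -0.607 and Pearson's r -0.51 with log2 length, across genes of the same 4 libraries, which are not independent replicates). The median was 0.60 among the 582 shortest genes and -1.19 among the 577 longest. PHO90, 2646 bases long, had the value of the trend at its length, -0.67. PHO87, 2772 bases long, had -0.48 against a trend of -0.73, so with the trend removed it turned to 0.25. PHO84, 1764 bases long, had a trend value of -0.19, and -1.27 remained. Of the 577 genes between 1719 and 2088 bases, 49 had a lower fold change than PHO84. The 4 acid phosphatases share a length and so a trend value, 0.04, and their fold changes still ran from -0.66 to 0.28. PHO4 had the largest gap to the trend after PHO84 and PHO5, -0.55 and -0.70 being the remainders of PHO4 and PHO5. What part length had in these differences was not tested.

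**Figure D5:**
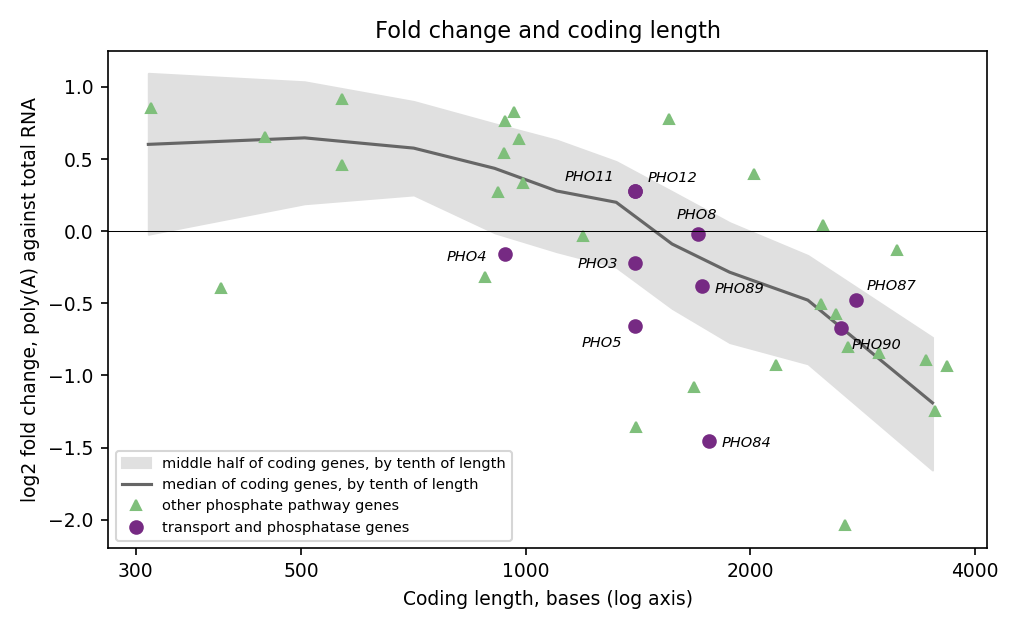
Log2 fold change, poly(A) against total RNA, by coding length in bases on a log axis. The line and band are the median and interquartile range of coding genes in each of 10 length classes, circles the 10 genes and triangles 28 other phosphate pathway genes. PHO84 lies well below the band at -1.46, and PHO90 lies near the median line at -0.67.

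Other genes of phosphate signalling, uptake and storage were read from the same fit. Of 28 such genes, 10 were higher, 12 lower and 6 did not pass, against 31%, 31.2% and the remainder of all features, with a median log2 fold change of -0.080. Among 6 regulators, 2 were higher and 2 lower. PHO81, the inhibitor of Pho80-Pho85, fell by 1.25 (SE 0.09, adjusted p = 5.43e-11), from 52.9 ± 3.06 to 22.4 ± 0.634 normalised CPM (SD, n = 2). PHO2, the homeodomain partner of Pho4, fell by 1.08 (SE 0.14, adjusted p = 7.27e-07), and SPL2, which acts on low-affinity transport, rose by 0.65 (SE 0.16, adjusted p = 0.00104). With the length trend removed, PHO81 had -0.18, PHO2 -0.94 and SPL2 -0.010.

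Of 6 genes listed under transporters and traffic, among them the enzyme gene GDE1, 2 were higher and 3 lower. Over all features tested the shares were 31% and 31.2%. PHO91, the phosphate transporter of the vacuolar membrane, had 51.6 ± 4.79 normalised CPM in total RNA and 12.6 ± 0.460 in the poly(A) fraction (SD, n = 2). Its log2 fold change of -2.04 (SE 0.09, adjusted p = 3.29e-14) was further from 0 than that of PHO84. GDE1, a glycerophosphocholine phosphodiesterase, fell by 0.93 (SE 0.12), and PHO88, an endoplasmic reticulum protein listed as SND3 in the reference, rose by 0.92 (SE 0.09). With the length trend removed, PHO91 had -1.35, PHO88 0.29 and GDE1 0.18, the last with its sign turned. Of 8 polyphosphate genes, 2 were higher and 4 lower, with VTC4 and VTC5, subunits of the vacuolar transporter chaperone that makes polyphosphate, at -0.92 and -0.57 (SE 0.08 and 0.12), and the polyphosphatase gene PPN2 at 0.64 (SE 0.09). VTC5 did not pass with scaling to the nuclear coding sum (-0.25, adjusted p = 0.0665). Less the length trend, VTC4 had -0.51, VTC5 0.076 and PPN2 0.28.

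The inositol pyrophosphate kinase gene VIP1 fell by 0.89 (SE 0.10), the phosphatase gene DDP1 rose by 0.46 (SE 0.12), and the kinase gene KCS1 had -0.13 (SE 0.10, adjusted p = 0.292). Less the length trend these were 0.13 for VIP1, -0.17 for DDP1 and 0.77 for KCS1. All 5 genes of the last group, phosphatases and genes responsive to phosphate, passed the test, 3 higher and 2 lower. Of all features tested 62.2% passed. PHM6 rose by 0.86 (SE 0.15), and 0.18 remained without the length trend. DIA3 (18 and 15 total RNA counts) had -1.35 (SE 0.34, adjusted p = 0.00163) and -1.002 without total RNA replicate 1 (adjusted p = 0.0501). PHM7 (30 and 20 total RNA counts) had -0.84 (SE 0.36, adjusted p = 0.0471), its library values overlapped between fractions, and it did not pass without total RNA replicate 1 (-0.30) or without poly(A) replicate 2 (-0.51). PHM7 also did not pass with scaling to the nuclear coding sum (-0.52, adjusted p = 0.233). With nuclear coding features only it had -0.84 (adjusted p = 0.0623), and without the low-count filter -0.83 (adjusted p = 0.101). Less the length trend PHM7 had -0.020.

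The genes closest to PHO84 in level over the 4 libraries were TKL1, SAH1 and SSE1, at distances of 0.183, 0.530 and 0.534 on the scale of log2 normalised CPM per kilobase plus 0.5. TKL1, which encodes a transketolase, had 206 and 218 normalised CPM per kilobase in total RNA and 84.6 and 78.5 in the poly(A) fraction. The log2 fold changes of the 3 genes were -1.38, -0.96 and -1.06 (SE 0.08 for each). The distance was taken over the same 4 libraries, so values near that of PHO84 follow from the choice.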

How the data were processed

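RNA from 2 total RNA and 2 poly(A) RNA libraries was measured by single-end sequencing of 50 bases. The authors deposited unnormalised read counts for each feature, per the file headers. The submitters' processing notes list the tools FastQC 0.11.8, cutadapt 1.18 and Bowtie2 2.3.4.3 and the build R64. How reads were counted, whether strand was used and what became of multiply matching reads was not given in the sources used here. Some segments shared by genes on opposite strands, such as YKR075C and YKR075W-A, had counts of their own. Among the 7382 features, 622 are segments shared by overlapping genes, and 5 lines were empty.

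Coordinates and coding lengths came from the RefSeq annotation of R64, which gave a length to 5866 of 6433 single nuclear reading frames. Sequences were read from the RefSeq genome of the same build. Counts were tested with edgeR 4.0.16 (R 4.3.3): filterByExpr, TMM, and the quasi-likelihood test, with p-values adjusted by Benjamini-Hochberg over all 6945 features that passed and a threshold of 0.05. The SE is the log2 fold change divided by the square root of F. Normalised CPM use the TMM-scaled library size. TMM factors were 0.162 and 0.156 for total RNA and 6.25 and 6.34 for poly(A) RNA. The procedure was checked on simulated counts of nuclear coding features with known changes. The other RNA of the total RNA libraries was left out of the simulation, so it does not check the scaling between fractions. Ratios within a library were tested with an exact permutation test in scipy 1.17.1. Alternatives were other scalings, filters, DESeq2 1.42.0, a replicate block, removal of a loess trend with length, and each library left out.

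The labels call the libraries biological replicates without naming separate cultures, so p-values measure the spread between these samples. In edgeR that spread is estimated with information shared over all features tested, not from the 4 libraries of a single gene alone. The 10 genes and the pathway list were chosen with earlier results of these data known. Named pathway genes are up to 3 per role ranked by the size of the log2 fold change without regard to p. The 3 genes nearest to PHO84 were taken by distance. All 28 pathway genes and all 10 members were tested.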

Additional observations from a re-analysis of the deposited data

How the results depend on the processing

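When libraries were scaled to their totals, the median over all features moved from 0.044 to 5.34 (log2), and 98.9% of all calls were higher. All 10 genes and all 28 pathway genes were higher and 0 lower, as nearly all called features were. The values were then 3.85 for PHO84, 4.92 for PHO89, 4.83 for PHO87, 4.64 for PHO90, 4.65 for PHO5, 5.09 for PHO3, 5.29 for PHO8 and 5.15 for PHO4. For pathway genes they were 4.38 for GDE1, 4.46 for PHM7, 3.27 for PHO91, 4.42 for VIP1, 4.39 for VTC4, 4.06 for PHO81, 4.74 for VTC5, 5.18 for KCS1, 4.23 for PHO2 and 3.94 for DIA3. With scaling to the nuclear coding sum the median was 0.37 and 67.1% of calls were higher instead of 49.9%. Of the 10 genes, 3 were then lower (PHO84, PHO90 and PHO5), and PHO3 had 0.098 and PHO8 0.30. With PHO11 and PHO12 summed, 1 feature was higher in place of 2. With the trend with length removed, PHO87 had 0.25, GDE1 0.18, DDP1 -0.17, VIP1 0.13, SPL2 -0.010 and VTC5 0.076.

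Leaving out each library gave 5 lower and 2 higher genes of the 10 each time, but without total RNA replicate 2 or poly(A) replicate 1 PHO89 passed and PHO3 did not. It gave 9 higher and between 10 and 12 lower pathway genes, a PHO3 to PHO5 difference between 0.32 and 0.53, a PHO84 to PHO5 difference between -0.87 and -0.74, and a PHO87 to PHO90 difference between -0.0078 and 0.37. DESeq2 changed no call of the 25 named genes. The labels do not say that replicate numbers pair the samples, and across 6945 features the deviations of same-numbered libraries correlated at 0.031. Counts in total RNA were low for many of them, with medians of 62 and 85 over nuclear coding features. Among features with a mean of at least 1000 poly(A) counts, the 10 whose poly(A) replicates differed most include PHO89. All of these differed in the same direction in total RNA, as ARG1 did with -0.54 in poly(A) and -0.86 in total RNA (log2). Whether the replicates are paired cannot be decided from this. With a replicate block, PHO89 passed (-0.42, adjusted p = 0.00624), so 6 of the 10 were lower, 2 higher, and the pathway counts were 10 and 12. The low counts of PHO4, DIA3 and PHM7 in total RNA limit the precision of their fold changes.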

Other observations

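Some values outside the named comparisons stood out and were chosen after they were seen. VTC1, the smallest subunit of the polyphosphate-making complex at 390 bases, had 82.1 and 78.0 normalised CPM in total RNA and 62.5 and 59.2 in poly(A) RNA and fell by 0.39 on the log2 scale (SE 0.08, adjusted p = 0.000205), where the trend at its length was 0.68. VTC3, a subunit of 2508 bases, had 0.046 (SE 0.07, adjusted p = 0.616) where the trend was -0.60, so these subunits departed from the length trend in opposite directions. PHO86, which helps Pho84 leave the endoplasmic reticulum, rose by 0.54 (SE 0.09, adjusted p = 1.61e-05), while PHO84 itself was lower. PHO86 went from 43.3 ± 3.95 to 62.6 ± 0.320 normalised CPM (SD, n = 2). The trend at its length was 0.39, and 0.15 remained. GIT1, a glycerophosphoinositol permease, had 4 and 9 counts in total RNA and 380 and 342 in poly(A) RNA, the lowest total RNA counts of the 28 pathway genes.

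Among the 4961 nuclear coding features with a mean of at least 1000 poly(A) counts, those whose poly(A) replicates differed more than those of PHO89 were BTN2, HXT2, SSE2, SUR1 and the segment shared by YKR075C and YKR075W-A. The hexose transporter gene HXT2 had 38342 and 25269 poly(A) counts, a difference of 1.55-fold, and the chaperone-linked gene BTN2 had 3097 and 2001, or 1.58-fold. In each of these 5, as in PHO89, replicate 1 was the higher in poly(A) RNA, and it was also the higher in total RNA after scaling, by 0.20 on the log2 scale for PHO89 and between 0.17 and 0.54 for the others. The cause was not tested.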
